A study of Homo sapiens with 6 samples.

Results

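MIR155HG, MIR17HG, MIR22HG and DLEU2 are long non-coding RNA genes whose transcripts or introns carry microRNAs, and they are described here in a myeloma cell line with and without extra TAZ. The 4 genes were taken by name from the table that pairs transcripts with genes, out of 63677 gene IDs in all, and the TPM of their 39 listed transcripts was summed per gene. The members were selected on their TPM in HA-TAZ against control libraries, the same values as reported here, so their own differences are given as a description. No p is given for a member, and how many the fit over all genes called is stated once, beside the share of all genes called. All 4 passed the filter on level, a mean of at least 1 TPM over the 6 libraries.

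The libraries are total RNA of KMS27, an established line of malignant plasma cells, depleted of ribosomal RNA and sequenced from both ends with strand kept. Per the labels, 3 libraries are of wild type cells, although their titles carry the letters HA, and 3 are of cells treated as HA-TAZ, TAZ with an HA peptide tag. Libraries were prepared in triplicate. TAZ, the product of WWTR1, is a transcriptional coactivator that binds TEAD factors and is restrained by the Hippo pathway. The 3 columns used as controls are named scr in the table, a name found in no label, and are assigned to the wild type group because the other 3 columns name TAZ. The letters a, b and c stand for them, as the numbers 1, 2 and 3 do for the HA-TAZ libraries. No source used here states the promoter behind HA-TAZ, whether the HA-TAZ cells were 1 clone, or whether the 3 libraries of a group came from separate cultures, so the spread between them may be technical.

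A microRNA begins as a hairpin in a longer RNA. The nuclease Drosha cuts the hairpin out of its host transcript, Dicer trims it to a short duplex, and an Argonaute protein uses 1 strand to pair with messenger RNAs, chiefly through bases 2 to 8 of the microRNA, the seed. Host RNA measured by sequencing of long RNA is the precursor side of this pathway, and mature microRNAs were not measured in these libraries. In lymphoid cells MIR155HG, first described as BIC, is known as a gene switched on by antigen receptor, NF-kB and AP-1 signalling. MIR17HG is a MYC target amplified in some lymphomas, DLEU2 lies in the region of chromosome 13 that is often lost in chronic lymphocytic leukaemia and myeloma, and MIR22HG responds to stress and DNA damage.

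The mature microRNAs of the 4 hosts are shown because they define which messenger RNAs could be read out below. The sequences are from RefSeq on build GRCh38.p14, written 5′ to 3′ with the seed in capitals, and all 10 were matched by name. The host is MIR155HG on chromosome 21 for the first, MIR17HG on chromosome 13 for the next 6, MIR22HG on chromosome 17 for miR-22-3p and DLEU2 on chromosome 13 for the last pair.
hsa-miR-155-5p: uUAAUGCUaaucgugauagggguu
hsa-miR-17-5p: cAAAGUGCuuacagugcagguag
hsa-miR-20a-5p: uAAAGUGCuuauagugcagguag
hsa-miR-18a-5p: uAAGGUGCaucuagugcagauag
hsa-miR-19a-3p: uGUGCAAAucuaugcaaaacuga
hsa-miR-19b-3p: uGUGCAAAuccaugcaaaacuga
hsa-miR-92a-3p: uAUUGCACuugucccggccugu
hsa-miR-22-3p: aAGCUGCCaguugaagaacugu
hsa-miR-15a-5p: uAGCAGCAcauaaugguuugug
hsa-miR-16-5p: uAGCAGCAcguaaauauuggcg
Among these, miR-17-5p and miR-20a-5p shared a seed, as did miR-19a-3p with miR-19b-3p and miR-15a-5p with miR-16-5p. The other 4 each had a seed of their own.

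Values are TPM, which the authors deposited. TPM is a share of transcripts, corrected for transcript length and set to a sum of 1000000 in each library, so it carries no read depth and the depth of each library is unknown. Signal recognition particle and 7SK RNAs made up 26.8% to 28.3% of TPM with HA-TAZ and 21.7% to 26.2% without, and their part in the differences below was not tested. Each library was therefore also divided by a median-of-ratios factor, and scaled TPM means TPM after this division. WWTR1 had a mean of 297 ± 7.42 TPM with HA-TAZ and of 2.20 ± 0.497 TPM without it (SD, n = 3 each). All 9 plasma cell markers found were detected and tested, with a summed level that ranged from 2785 to 3217 TPM with HA-TAZ and from 4270 to 4825 TPM without. Most of this sum is IGJ, the joining chain of antibodies, at 2457 ± 199 TPM with HA-TAZ and 3792 ± 254 TPM without (SD, n = 3 each), which was not called after scaling (limma adjusted p = 0.0654). Of the 9, SLAMF7 was called higher and CD38 lower, calls that held in 4 and 1 of 6 fits without a library (highest limma adjusted p = 0.0652 and 0.0896). The 11 markers of T cells, myeloid cells, epithelium, fibroblasts and red cells summed to 5.95 to 7.64 TPM with HA-TAZ and 6.85 to 8.42 TPM without, and CD3D stood at 0 in control a and in HA-TAZ 1 to 3. In bulk RNA, fewer cells of a type and less RNA per cell cannot be told apart.

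MIR155HG (ENSG00000234883), the host of miR-155, was far higher in HA-TAZ libraries. HA-TAZ 1, 2 and 3 held 20.9, 23.6 and 21.0 TPM of it, against 4.15, 4.14 and 4.79 TPM in controls a, b and c. The lowest HA-TAZ library lay above every control, and the groups were narrow around their means of 21.8 ± 1.53 TPM and 4.36 ± 0.371 TPM (SD, n = 3 each). The ratio of the means was 5.01 in TPM and 6.14 in scaled TPM. On the log2(scaled TPM + 1) scale the difference was 2.35, and single pairs of an HA-TAZ and a control library differed by 2.15 to 2.52. By this difference MIR155HG ranked 12 from the highest among 22651 tested genes. The means in the authors' deposited table correspond to 911 estimated counts for its transcript, a counting error of about 3.31%. This is a mean on the log scale over both groups. Control libraries lie below it, so their counting error is larger.

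MIR17HG (ENSG00000215417), the host of the 6 microRNAs of the miR-17-92 cluster, showed no difference that was independent of the scaling. Its TPM was 20.3, 21.8 and 18.5 in HA-TAZ 1 to 3, against 24.1, 23.3 and 24.9 in controls a to c, so that each HA-TAZ library was below each control. In scaled TPM the same libraries stood at 23.5, 22.5 and 20.8 against 19.9, 21.3 and 23.5, and the groups overlapped. The log2 difference of 0.04 in scaled TPM became −0.24 with TPM as deposited, a setting in which the median of all tested genes was itself −0.27. MYC, the factor best known for driving MIR17HG, had a log2 difference of 0.18 (SE 0.05) that did not pass the threshold (limma, Benjamini-Hochberg adjusted p = 0.0859).

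MIR22HG (ENSG00000186594), the host of miR-22, was higher in HA-TAZ libraries at a low level. HA-TAZ 1 to 3 held 1.92, 1.92 and 2.03 TPM, against 1.39, 1.57 and 1.13 TPM in controls a to c. The groups did not overlap, and the spread was wider among controls. In scaled TPM the means were 2.16 ± 0.158 and 1.22 ± 0.196 (SD, n = 3 each), a ratio of 1.78, against a ratio of 1.44 in TPM as deposited. The log2 difference was 0.51 at a pseudocount of 1 and 0.79 at 0.1, since a pseudocount of 1 is close to the level of this gene. Its transcripts with statistics in the authors' deposited table correspond to 133 estimated counts, a counting error of about 8.66%, the largest of the 4 genes.

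DLEU2 (ENSG00000231607), whose introns hold miR-15a and miR-16-1, was lower in HA-TAZ libraries in TPM and overlapped in scaled TPM. HA-TAZ 1 to 3 held 15.03, 15.7 and 13.4 TPM, against 20.3, 19.8 and 20.9 TPM in controls a to c. Every HA-TAZ library was below every control in these values. In scaled TPM the means were 16.2 ± 1.16 and 18.3 ± 1.52 (SD, n = 3 each), with HA-TAZ 1 at 17.4 inside the range of the controls, which began at 16.8. The log2 difference was −0.16 after scaling and −0.45 with TPM as deposited, where the median of all tested genes was −0.03 and −0.27. With scaling over genes of at least 10 TPM the difference was −0.23 against a median of −0.09, and the groups did not overlap. Nor did they with signal recognition particle and 7SK RNAs removed, at −0.40 against −0.23.

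**Figure D1:**
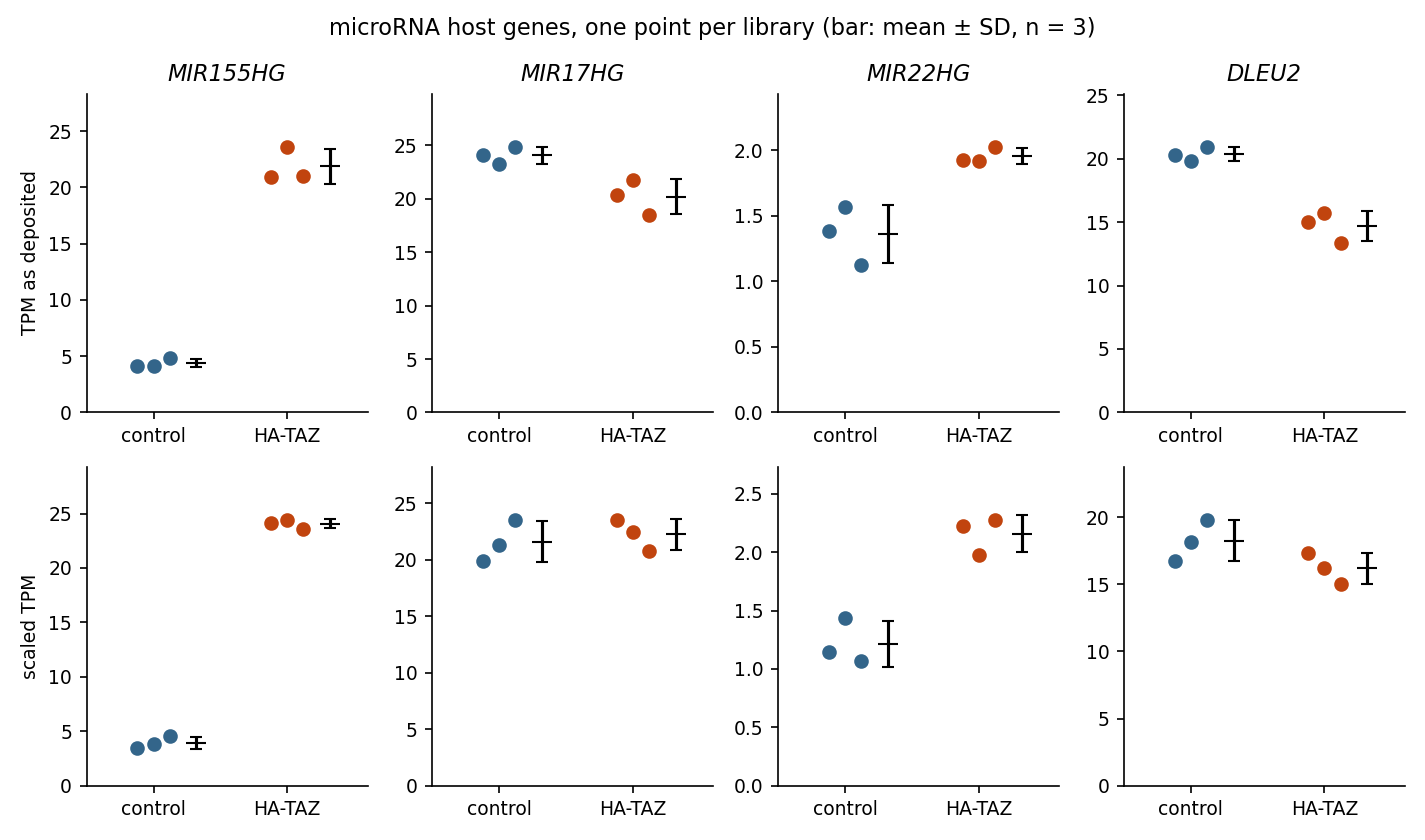
TPM as deposited (upper row) and scaled TPM (lower row) of the 4 host genes, with 1 point per library in the order of the library names, and the mean with its SD as a bar (n = 3). MIR155HG and MIR22HG stand higher in HA-TAZ libraries in both rows, whereas MIR17HG and DLEU2 separate only in the upper row.

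Of the 4 members, 2 were higher in HA-TAZ without overlap of the groups and 0 lower in scaled TPM, against 20.2% and 18.3% of all tested genes. In TPM as deposited 2 were higher and 2 lower, against 4.41% and 43.6%. By the test over all genes, 1 member, MIR155HG, was called higher and 0 lower, against 4.67% and 2.63% of all tested genes, or 7.29% in either direction. At an unadjusted p under 0.05 the share of all tested genes was 30.7%. Nothing is read from these counts, because the members were chosen by this contrast. Of the 1652 genes called, 64.0% were higher, and this split was 7.84% with TPM as deposited, 10.5% with signal recognition particle and 7SK RNAs removed and 43.2% with scaling over genes of at least 10 TPM.

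Ratios between hosts within a library do not depend on the scaling. The ratio of MIR155HG to MIR17HG was 1.03, 1.09 and 1.14 in HA-TAZ 1 to 3, against 0.173, 0.178 and 0.193 in controls a to c. The miR-155 host thus moved from a small fraction of the level of the miR-17-92 host to about the same level. The ratio of DLEU2 to MIR17HG, both on chromosome 13, was 0.740, 0.721 and 0.723 in HA-TAZ libraries and 0.843, 0.853 and 0.842 in controls, again without overlap.

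The order of the 4 levels in TPM therefore differed between the groups. In controls MIR17HG was first at 24.1 ± 0.807 TPM, followed by DLEU2 at 20.4 ± 0.556, MIR155HG at 4.36 ± 0.371 and MIR22HG at 1.36 ± 0.222 (SD, n = 3 each), and no neighbours in this order overlapped. In HA-TAZ libraries MIR155HG and MIR17HG overlapped at the top, with means of 21.8 ± 1.53 and 20.2 ± 1.63 TPM. DLEU2 followed at 14.7 ± 1.19 TPM and MIR22HG at 1.96 ± 0.0619 TPM (SD, n = 3 each), each below the range of the gene before it.

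The transcripts show which RNA form carries these values. GENCODE release 29 held a sequence for all 30 host transcripts, although its version of some differs from the version in the table, and it was searched for the mature microRNAs above. MIR155HG has a single host transcript, ENST00000456917.1, spliced from 4 exons, and miR-155-5p lies in the spliced sequence. This transcript held all TPM of the gene. In the authors' deposited table its effect was 1.84 with a standard error of 0.0825 on the natural log scale of HA-TAZ over control.

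MIR17HG was carried by a pair of transcripts that differ in whether the microRNAs are retained. ENST00000582141.1, listed as a retained intron form of 2845 bases with 2 exons, holds all 6 mature microRNAs of the cluster. HA-TAZ 1 to 3 held 8.05, 8.09 and 7.92 TPM, against 8.86, 8.79 and 9.22 TPM in controls a to c, a narrow range in either group. ENST00000400282.2, of 931 bases in 4 exons, holds none of them. Its values were 12.2, 13.4 and 10.5 TPM, against 15.02, 14.4 and 15.7 TPM in the controls. The ratio of the retained form to the spliced form was 0.658, 0.603 and 0.753 in HA-TAZ libraries and 0.590, 0.609 and 0.589 in controls, and HA-TAZ 2 lay within the range of the controls. The authors' deposited table gave effects of 0.117 (standard error 0.0704) for the retained and −0.00476 (standard error 0.0889) for the spliced form on the natural log scale.

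MIR22HG was spread thinly over many forms. Of its 19 host transcripts, all of which hold miR-22-3p in their GENCODE sequence, 10 were listed at 0 in all libraries and 3 were above 0 in every library. Only ENST00000574306.1 reached a mean of 0.5 TPM, with 0.649, 0.650 and 0.573 TPM in HA-TAZ 1 to 3, against 0.491, 0.394 and 0.568 TPM in controls a to c. HA-TAZ 3 and control c nearly met in this transcript, and the groups of the other forms overlapped.

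DLEU2 had 6 transcripts with a mean of at least 0.5 TPM, and none of its 7 host transcripts holds miR-15a-5p or miR-16-5p. The most abundant, ENST00000235290.3, had 4.11, 4.67 and 4.92 TPM in HA-TAZ 1 to 3, against 9.11, 7.85 and 7.80 TPM in controls a to c. ENST00000425586.1 was at 1.96, 1.93 and 1.98 TPM against 3.77, 3.36 and 3.73 TPM. Both forms have 7 exons in GENCODE and were lower in HA-TAZ libraries without overlap. Together they made up 40.4%, 42.05% and 51.5% of DLEU2 in HA-TAZ libraries and 63.5%, 56.5% and 55.03% in controls, a share that does not depend on the scaling. The rest of DLEU2 came to 8.18 ± 1.47 TPM with HA-TAZ and 8.48 ± 1.01 TPM without (SD, n = 3 each), and overlapped. This pair was singled out after its values were seen. Of the other 4 forms, ENST00000443587.1 was lower without overlap in TPM as deposited, at 1.56 to 2.83 against 2.90 to 3.43 TPM. In that setting 43.6% of all tested genes were lower without overlap. Divided by the factor of each library, 0.866 for HA-TAZ 1 and 1.21 for control a, the groups of this form overlap. The other 3 forms overlapped in TPM as deposited. In the authors' deposited table the effects of the pair were −0.369 (standard error 0.108) and −0.390 (standard error 0.130) on the natural log scale.

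**Figure D2:**
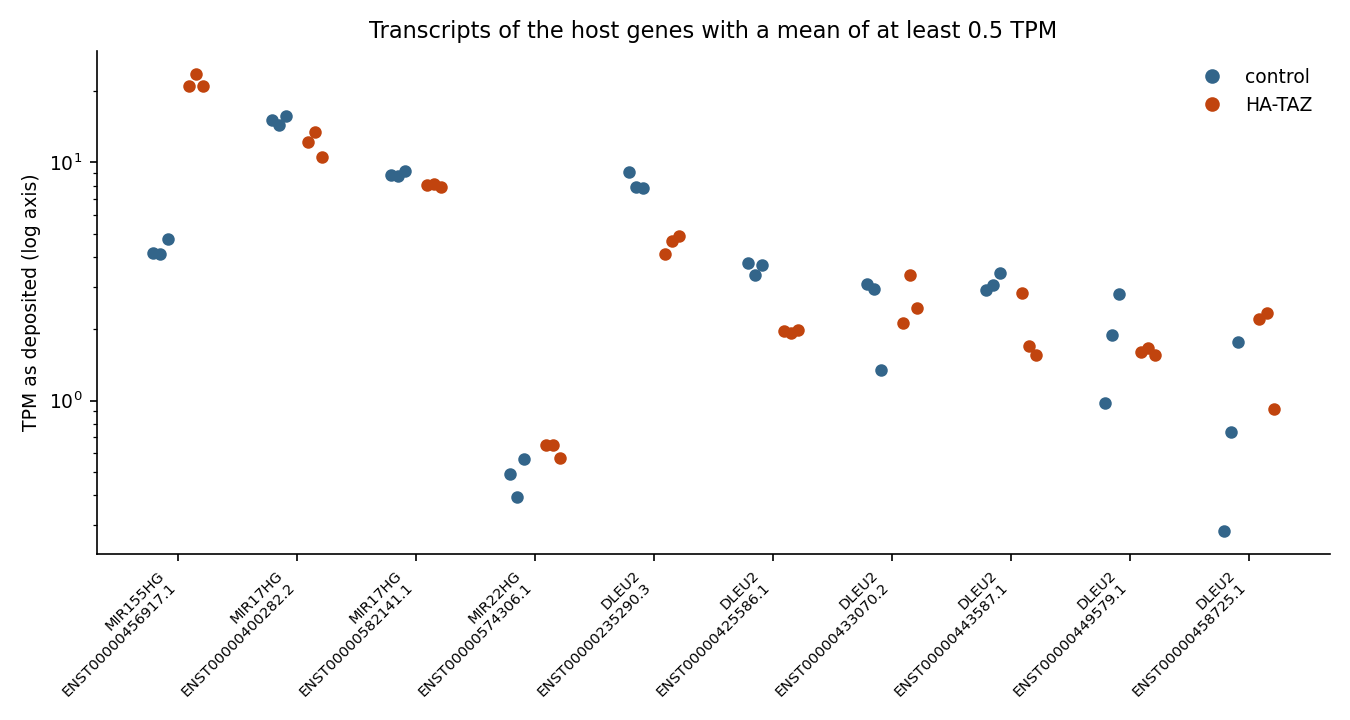
TPM as deposited on a log axis for the 10 host transcripts with a mean of at least 0.5 TPM, with 1 point per library and the groups in 2 colours. The single MIR155HG transcript and ENST00000574306.1 of MIR22HG are higher in HA-TAZ libraries without overlap. The pair of MIR17HG forms and the ENST00000235290.3, ENST00000425586.1 and ENST00000443587.1 forms of DLEU2 are lower without overlap. In TPM as deposited 43.6% of all tested genes were lower without overlap.

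Hairpins themselves gave almost no signal. All 9 hairpin transcripts that the table lists under these genes were at 0 in all 6 libraries, among them those of miR-155, miR-22, miR-15a and the 6 of the cluster. MIR16-1, which has a gene ID of its own, was listed at 2.25 TPM in HA-TAZ 1 and at 0 in the other 5 libraries. The sums for the 4 host genes are therefore sums over host transcripts alone.

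The promoter of MIR155HG is shown because this gene had the largest difference of the 4. The window runs from 250 bases before to 50 bases after the start of the RefSeq gene, at chr21:25561895-25562194 on the plus strand of GRCh38.p14. The submitters' processing notes name GRCh37, and the deposited tables carry no coordinates. Capitals mark motif matches.
MIR155HG promoter: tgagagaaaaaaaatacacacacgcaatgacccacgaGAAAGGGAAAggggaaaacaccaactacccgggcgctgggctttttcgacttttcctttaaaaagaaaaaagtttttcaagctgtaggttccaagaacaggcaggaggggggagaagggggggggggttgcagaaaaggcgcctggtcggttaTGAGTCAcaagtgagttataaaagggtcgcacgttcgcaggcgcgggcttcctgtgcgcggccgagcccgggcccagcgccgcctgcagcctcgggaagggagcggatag
Searched on both strands were the TEAD motif GGAATG, the AP-1 motif TGANTCA, the E-box CACGTG, the IRF motif of GAAA, any 2 bases and GAAA, the E2F motifs TTTCGCGC and TTTGGCGC, and the NF-kB motif. The window held 1 AP-1 match, TGAGTCA, whose first base is 60 bases before the start, and 1 IRF match, GAAAGGGAAA, 213 bases before it. An AP-1 match is found in 7.71% and an IRF match in 3.57% of 35116 windows of the same length. The windows of MIR17HG and MIR22HG held no match to any of the 6 motif groups. RefSeq gives DLEU2 a pair of starts, and their windows held a TEAD match at 1 start and an E-box with NF-kB matches at the other, motifs found in 14.03%, 7.26% and 11.3% of windows. A match of letters is no evidence of binding.

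Transcription factors described as regulators of these hosts held more calls in 1 direction than in the other. The 29 on this list were chosen with earlier results of these data known, so their counts are a description. Of them 24 were tested, 8 were called higher and 0 lower (limma, Benjamini-Hochberg adjusted p under 0.05), against 4.67% and 2.63% of all tested genes. Their median log2 difference was 0.20 against −0.03 over all genes. The 8 were the AP-1 subunits JUN, JUNB, JUND and FOS, the NF-kB subunits RELB, NFKB2 and REL, and STAT3. FOS and JUND were named after their values were seen. With TPM as deposited, or with signal recognition particle and 7SK RNAs removed, 5 regulators were called, and 2 to 5 when 1 library was left out, all of them higher. The median of the list was −0.10 and −0.04 in those settings, against −0.27 and −0.23 over all genes.

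JUNB had means of 37.1 ± 1.07 and 16.8 ± 1.15 TPM (SD, n = 3 each, HA-TAZ first here and below), and rose by 1.39 on the log2 scale (SE 0.11, limma adjusted p = 0.00689). RELB, the partner of the processed NFKB2 product, was at 27.2 ± 0.549 against 14.2 ± 1.07 TPM and rose by 1.18 (SE 0.11, limma adjusted p = 0.0106). JUN rose by 1.04 (SE 0.08, limma adjusted p = 0.00610) and NFKB2 by 0.63 (SE 0.09, limma adjusted p = 0.0250). JUN and JUNB kept their call in each of the 6 fits that left out a library, RELB in 3 of 6, STAT3 in 2 and NFKB2 in 1 (highest limma adjusted p = 0.0613, 0.0606 and 0.104). REL, FOS and JUND kept theirs in 0 of 6 (highest limma adjusted p = 0.114, 0.119 and 0.126). With TPM as deposited, FOS, JUND and REL were not called (limma adjusted p = 0.0678, 0.0972 and 0.132).

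IRF4, a plasma cell factor also tied to MIR155HG, had a log2 difference of −0.13 (SE 0.08) and was not called (limma adjusted p = 0.334). SPI1, PAX5, MYCN, STAT5A and FOXP3 were below the filter on level.

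No other gene named as a microRNA host was called. Of 21 such genes, comprising those with names of the form MIR and HG as well as DLEU1 and FTX, 11 were tested. By limma 0 were called in either direction, against 7.29% of all tested genes, a share from which 0 of 11 cannot be told apart. At an unadjusted p under 0.05, 0 were higher and 1 lower, against 30.7% of all tested genes in either direction. Their median log2 difference was −0.04 against −0.03 over all genes. With TPM as deposited or with signal recognition particle and 7SK RNAs removed, 2 were called, both lower. In those settings 3068 and 2848 of all tested genes were called lower. FTX, named after its values were seen and known as an X-linked microRNA host, had the smallest p, with a log2 difference of −0.21 (SE 0.07, limma adjusted p = 0.101). DLEU1, which lies beside DLEU2 on chromosome 13, had means of 10.9 ± 0.278 and 14.4 ± 1.16 TPM (SD, n = 3 each) and a log2 difference of −0.09 (SE 0.08, limma adjusted p = 0.473).

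Among protein-coding hosts, 32 of 46 were tested, and 1 was called higher and 2 lower (limma), against 4.67% and 2.63% of all tested genes. The median log2 difference of the list was 0.04. Its calls were 1 higher and 7 lower with TPM as deposited, and with signal recognition particle and 7SK RNAs removed 1 higher and 5 lower. VMP1, a membrane protein of autophagy whose gene overlaps miR-21, was at 131 ± 9.86 against 97.3 ± 5.95 TPM (SD, n = 3 each) and rose by 0.72 (SE 0.07, limma adjusted p = 0.0104). SREBF1, a regulator of lipid synthesis that hosts miR-33b, fell by 0.63 (SE 0.05, limma adjusted p = 0.00492), and PANK1, a kinase of coenzyme A synthesis that hosts miR-107, fell by 0.56 (SE 0.07, limma adjusted p = 0.0219). SREBF1 kept its call in all 6 fits without a library, VMP1 in 4 of 6 (highest limma adjusted p = 0.0603) and PANK1 in 0 of 6 (0.0881).

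EIF4H, an initiation factor whose gene holds the miR-590 named in the title of the series, was at 52.7 ± 3.50 and 54.3 ± 1.90 TPM (SD, n = 3 each). Its log2 difference of 0.25 (SE 0.06) was not called (limma adjusted p = 0.0523). The table lists it under 2 gene IDs, and the one with the higher level is given. The MIR590 hairpin ranged from 12.3 to 18.5 TPM with HA-TAZ and from 21.4 to 28.2 TPM without, and is listed under 2 gene IDs with the same values. These are TPM as deposited, a setting in which 43.6% of all tested genes were lower without overlap. Divided by the factor of each library, 0.866 for HA-TAZ 1 and 1.21 for control a, the groups overlap. MCM7 and SMC4, the hosts of clusters related to miR-17-92 and to miR-15a with miR-16, had log2 differences of 0.22 and −0.14 and were not called (limma adjusted p = 0.0897 and 0.202).

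The proteins that process microRNAs showed 1 call in each direction among 18 tested, against 4.67% higher and 2.63% lower of all tested genes. Their median log2 difference was −0.04. There were 0 higher and 4 lower with TPM as deposited. AGO4, an Argonaute protein, fell by 0.48 (SE 0.07, limma adjusted p = 0.0295). RAN, which powers nuclear export of the precursors, rose by 0.27 (SE 0.05, limma adjusted p = 0.0420) after scaling, and its difference was −0.04 with TPM as deposited. Neither kept its call in any fit that left out a library (highest limma adjusted p = 0.106 and 0.136).

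Of 36 genes described as targets of miR-155, 33 were tested, 2 were called higher and 2 lower (limma), against 4.67% and 2.63% of all tested genes, and the median log2 difference was 0.03 against −0.03 over all genes. This split depended on the setting, with 0 higher and 3 lower for TPM as deposited, 1 higher and 4 lower with signal recognition particle and 7SK RNAs removed, and 3 higher and 0 lower by limma without trend. TP53INP1, a p53-induced stress protein, rose by 0.51 (SE 0.05, limma adjusted p = 0.0116), and GNA13, a G protein subunit, rose by 0.35 (SE 0.04, limma adjusted p = 0.0158). ZNF652, a zinc finger repressor, fell by 0.51 (SE 0.09, limma adjusted p = 0.0371), and ARID2, a subunit of a chromatin remodelling complex, fell by 0.30 (SE 0.06, limma adjusted p = 0.0426). Without 1 library 0 to 2 were called and 0 lower: ZNF652 and ARID2 kept their call in 0 of 6 fits, GNA13 in 1 and TP53INP1 in 2 (highest limma adjusted p = 0.124, 0.139, 0.0818 and 0.0618). INPP5D, the phosphatase SHIP1 and a classic miR-155 target, was at 22.3 ± 1.98 against 26.4 ± 0.532 TPM (SD, n = 3 each), with a log2 difference of 0.05 (SE 0.06, limma adjusted p = 0.575). SOCS1, a feedback inhibitor of cytokine signalling, had a log2 difference of 0.67 (SE 0.15) that was not called (limma adjusted p = 0.0569). INPP5D and SOCS1 were named after their values were seen. With TPM as deposited, TP53INP1 and GNA13 were not called (limma adjusted p = 0.0898 and 0.647).

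Of the targets described for the miR-17-92 cluster, 4 of 21 tested were called higher and 0 lower (limma), against 4.67% and 2.63% of all tested genes. Their median log2 difference was 0.14 against −0.03 over all genes. The split of calls depended on the setting. With TPM as deposited 2 were higher and 4 lower, where 261 of all tested genes were higher and 3068 lower. The median of the list was then −0.14 against −0.27 over all genes. With signal recognition particle and 7SK RNAs removed 3 were higher and 4 lower, where 335 of all tested genes were higher and 2848 lower. The medians were then −0.08 and −0.23. Without 1 library 1 to 4 were called. TNFAIP3, the deubiquitinase that brakes NF-kB, was at 37.2 ± 4.41 against 20.9 ± 1.39 TPM (SD, n = 3 each) and rose by 1.09 (SE 0.08, limma adjusted p = 0.00480). CYLD, another NF-kB deubiquitinase, rose by 0.58, STAT3 by 0.59 and BCL2L11, the cell death protein BIM, by 0.42. TNFAIP3 kept its call in all 6 fits without a library. CYLD and BCL2L11 kept theirs in 2 of 6 and were not called with TPM as deposited (limma adjusted p = 0.0666 and 0.148).

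Of the targets described for miR-15a and miR-16, 5 of 17 tested were called higher and 0 lower (limma), against the same shares of all genes. Their median was 0.07 against −0.03 over all genes. With TPM as deposited, and with signal recognition particle and 7SK RNAs removed, 1 was higher and 2 lower. The medians of the list were −0.21 and −0.16 in these settings, against −0.27 and −0.23 over all genes. Without 1 library 0 to 1 were called. MCL1, a survival protein on which myeloma cells lean, was at 102 ± 7.11 against 80.8 ± 5.29 TPM (SD, n = 3 each) and rose by 0.63 (SE 0.06, limma adjusted p = 0.0106). BCL2, CDC25A, CDK6 and FGF2 rose by 0.25 to 0.38 after scaling, and with TPM as deposited these 4 were at −0.05 to 0.11 and not called (limma adjusted p from 0.324 to 0.779). Of the targets described for miR-22, 2 of 14 were called higher and 0 lower (limma), against 4.67% and 2.63% of all tested genes. In both of those other settings 1 was higher and 3 lower, and without 1 library 0 to 1 were called. The 2 genes were RGS2, a brake on G protein signalling, with 0.86 (SE 0.09, limma adjusted p = 0.0114) and CDK6 with 0.25.

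**Figure D3:**
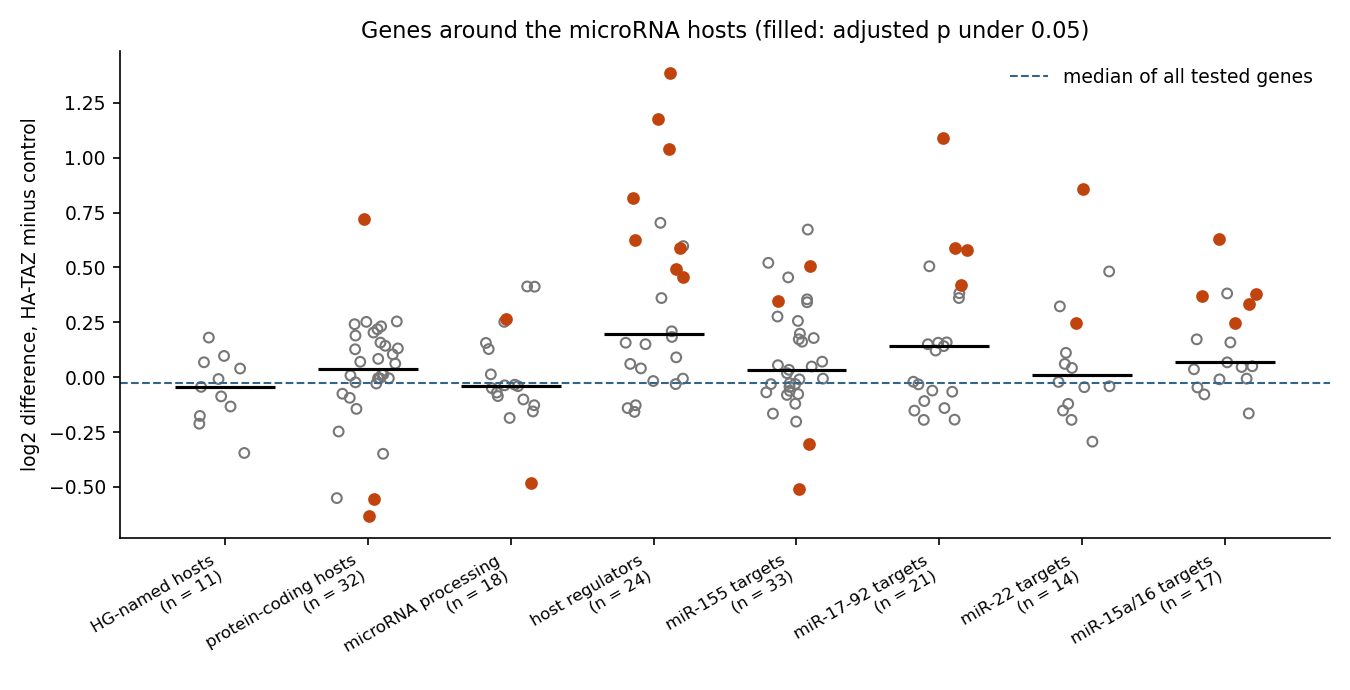
Log2 difference of HA-TAZ minus control for every tested gene of 8 lists, with a black line at the median of each list, a dashed line at the median of all tested genes and filled points for genes with a limma adjusted p under 0.05. The regulators of the hosts hold 8 filled points, all above 0, and the list of other named hosts holds none.

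The genes whose profile over the 6 libraries was nearest to that of MIR155HG were PLEK, ICAM1, UBD, RGS1 and IFIT2. Likeness was the root mean square distance between log2 profiles centred on their own mean, and these distances were 0.10, 0.10, 0.14, 0.14 and 0.19. PLEK, a leukocyte protein under the membrane, had a log2 difference of 2.23, and ICAM1, an adhesion molecule, of 2.32. Log2 differences of these genes ran from 2.14 to 2.62, near the 2.35 of MIR155HG. The distance rests largely on the contrast by which MIR155HG was selected, so the likeness is no separate result. For MIR17HG the nearest were TWIST1, COA5, METTL6, PPP1R7 and NHEJ1, with distances of 0.01 to 0.03. For DLEU2 they included RNF139-AS1, STRN3, LINC01003 and EAF2, with distances of 0.01 to 0.04. For MIR22HG they were TMEM99, CCDC94, UNC13C, GTF3C6 and DPYSL3, with distances of 0.04 to 0.05. Profiles with little variation are near to many others, so these distances cannot be compared between the 4 hosts.

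No tested gene beside the hosts was called, against 7.29% of all tested genes. With so few neighbours tested, the absence of calls cannot be told apart from that share. The nearest protein-coding genes on each side were taken from the RefSeq table of GRCh38.p14. MRPL39 and JAM2, on one side of MIR155HG, had log2 differences of 0.15 and 0.23 and were not called (limma adjusted p = 0.192 and 0.182), and TMPRSS15 and NCAM2, on the other, were below the filter. Beside MIR22HG, PRPF8 had a log2 difference of 0.13 and WDR81 of 0.26 (limma adjusted p = 0.120 and 0.109), and TLCD2 and SERPINF2 were below the filter. Beside MIR17HG, SLITRK5 had −0.06 (limma adjusted p = 0.676), GPC5 and GPC6 were below the filter and 1 gene was not matched. DLEU2 overlaps TRIM13 and KCNRG in RefSeq, and whether the quantification used strand is not given in the sources used here, so reads of these genes may have been shared. TRIM13 was at 6.82 ± 1.10 against 9.97 ± 0.742 TPM (SD, n = 3 each), with a log2 difference of −0.23, and KCNRG had −0.16 (limma adjusted p = 0.212 and 0.528). Of the genes flanking DLEU2, KPNA3, SPRYD7 and RNASEH2B had 0.06, −0.00348 and 0.19 (limma adjusted p = 0.614, 0.991 and 0.0738), and DLEU7 was below the filter.

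**Figure D4:**
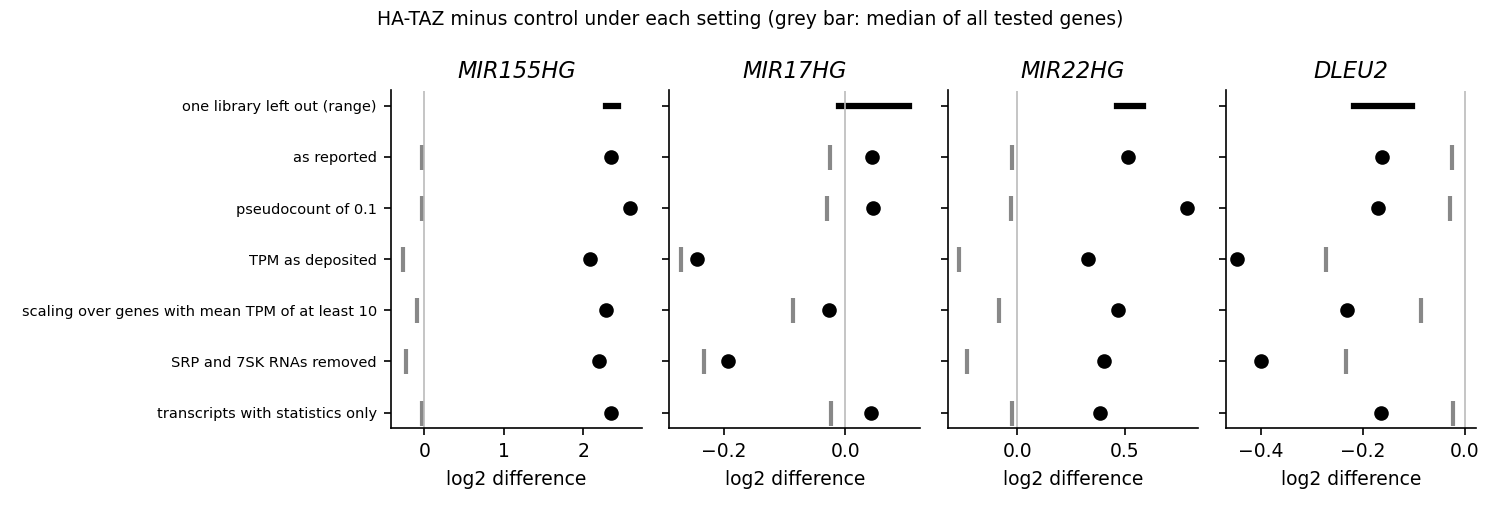
Log2 difference of HA-TAZ minus control for each host gene under each setting of the processing, with a grey bar at the median of all tested genes in that setting and a thick line for the range when 1 library is left out. Each panel has its own x axis, and MIR155HG lies between 2.09 and 2.60 across the settings while MIR17HG changes sign with the scaling.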

How the data were processed

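Total RNA of KMS27 cells was measured in 6 libraries, 3 per group. The authors deposited TPM for 215170 transcripts, and TPM sums to 1000000 in each library. Per the submitters' processing notes kallisto 0.46.0, sleuth 0.30.0 and the build GRCh37 were used, with no role given. Per the file headers the second table holds the authors' p-values, q-values, and effects and means on a natural log scale for 109487 transcripts. The q-values and p-values were not used here. Estimated counts are exponentials of those means.

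Gene levels are sums of TPM over the transcripts that this table pairs with a gene ID. Scaling used 21512 genes above 0 in all libraries with a mean of at least 1 TPM. The test was limma 3.58.1 (R 4.3.3) with its trend option, on log2 of scaled TPM plus a pseudocount of 1. It was two-sided and ran over 22651 genes with a mean of at least 1 TPM, and p-values were adjusted by Benjamini-Hochberg, with 0.05 as the threshold. The code was tested on simulated data. A pseudocount of 1 understates changes of low genes. Where a symbol has several gene IDs, the one with the highest mean was taken. Python 3.11.15, pandas 2.3.3, numpy 2.4.6 and matplotlib 3.10.9 were used. Sequences are from RefSeq and GENCODE release 29.

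The members, lists and rules were chosen with earlier results of these data known. Named were the members, their transcripts with a mean of at least 0.5 TPM, up to 6 called genes per list by smallest adjusted p, fixed hosts and factors, the 5 nearest profiles (1 gene is not reported here) and the nearest protein-coding neighbours. Alternatives were a pseudocount of 0.1, 3 other scalings, other filters on level, limma without trend, transcripts with statistics only leaving out each library and a replicate block.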

Additional observations from a re-analysis of the deposited data

How the results depend on the processing

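Read depth per library is unknown, and counting errors rest on the means in the authors' deposited table. The test is limited to 3 libraries per group. The labels do not say whether libraries of a group were separate cultures, so p-values measure only the spread between these libraries. A replicate block by the number in the column names, which no label ties to a control sample, was added after seeing the data. Deviations of same-numbered libraries from their group means correlated at −0.03, −0.00130 and 0.03 over 22651 genes. Pairs with different numbers ranged from −0.04 to 0.04. With 3 libraries per group, these correlations cannot show whether same-numbered libraries shared a culture or a preparation. With this replicate block limma called 3 genes, all higher in HA-TAZ, and 0 in each list above, those of regulators, hosts, processing genes and targets. Of 173 values recomputed without leaving out a library, 98 stayed close to the reported value and 75 moved. Fits that left out a library are not in this count and are given below. The causes were not tested.

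The number of genes called, 1652, was 3329 with TPM as deposited, 3183 with signal recognition particle and 7SK RNAs removed, 691 without a filter on level and 758 by limma without trend, and 115 to 433 without 1 library. The median over all genes shifted by −0.25 with TPM as deposited and by −0.21 with those RNAs removed. The log2 difference of MIR155HG was 2.60 at a pseudocount of 0.1, 2.09 as deposited and 2.20 with those RNAs removed. That of MIR17HG was −0.24 and −0.19 in the last pair of settings, and that of DLEU2 −0.45 and −0.40. MIR22HG had 0.79 at a pseudocount of 0.1, 0.33 as deposited, 0.40 with those RNAs removed and 0.38 over transcripts with statistics only. Without 1 library the ranges were 2.28 to 2.44 for MIR155HG, −0.01 to 0.10 for MIR17HG, 0.46 to 0.58 for MIR22HG and −0.22 to −0.10 for DLEU2.

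With TPM as deposited, calls were 2 of 11 other named hosts, 8 of 32 protein-coding hosts, 5 of 24 regulators and 4 of 18 processing genes. Among targets they were 6 of 21 for miR-17-92, 4 of 14 for miR-22 and 3 of 17 for miR-15a and miR-16. In this setting 3329 of all 22651 tested genes were called, 3068 of them lower. With signal recognition particle and 7SK RNAs removed the calls were 2 other named hosts, 6 protein-coding hosts, 5 regulators, 7 targets of miR-17-92, 4 of miR-22 and 3 of miR-15a and miR-16. Here 3183 of all 22071 tested genes were called, 2848 of them lower. Without a filter, 2 of 36 targets of miR-155, 3 of 20 of miR-15a and miR-16 and 1 of 20 processing genes were called. Over all genes these were 691 of 47371. With a mean of at least 5 TPM, 7 of 16 targets of miR-17-92 and 6 of 27 protein-coding hosts were called, against 2240 of 12613 over all genes. Without trend there was 1 call each among targets of miR-15a and miR-16, targets of miR-22 and processing genes, against 758 of 22651 over all genes. With scaling over genes of at least 10 TPM there were 2 targets of miR-15a and miR-16 and 1 processing gene, against 1447 of 22651 over all genes. Without 1 library, calls numbered 2 to 5 for regulators, 0 to 2 for miR-155 targets, 1 to 4 for miR-17-92, 0 to 1 for miR-22, 0 to 1 for miR-15a and miR-16, 1 to 2 for protein-coding hosts, and 0 in all such fits for processing genes and other named hosts.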
